A study of Mus musculus with 5 samples.

Results

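The 9 mouse genes Sox1, Sox2, Sox3, Sox21, Sox4, Sox11, Sox8, Sox9 and Sox10 were examined among the 25414 genes of the RNA-seq files. They were chosen by symbol from the SOX genes of groups B, C and E known in the nervous system, and Sox12 of group C was followed separately. The rule uses no measured value, but the 9 genes were chosen with earlier results of these data known. Each was represented by 1 RefSeq transcript, and all 9 passed the filter on low values, a mean of at least 1 FPKM in either cell type. RNA-seq covered neural stem cells (NSCs, 2 libraries) and STO cells (3 libraries). The NSCs were primary cells taken from the cortex of C57BL/6 mouse embryos and used after 5 to 8 passages as a monolayer on poly-L-ornithine and laminin with EGF and bFGF. STO is a line of embryonic mouse fibroblasts, labelled C57BL/6 here although the line comes from SIM mice, selected for resistance to thioguanine and ouabain, grown in serum for more than 30 passages. The labels name no transgene or treatment for either group. Cell type, growth medium and origin differed together between the groups, so their parts in any difference cannot be told apart.

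SOX proteins are transcription factors that bind and bend DNA through an HMG box, a domain first known from the sex-determining factor SRY. Group B1 factors (SOX1, SOX2 and SOX3) hold neural progenitors in an undifferentiated state, and the group B2 factor SOX21 counters them. Group C factors (among the 9 genes, SOX4 and SOX11) act in progenitors that become neurons and in many mesenchymal tissues. Group E factors (SOX8, SOX9 and SOX10) act in the formation of glia, and SOX9 also directs cartilage formation and SOX10 the neural crest.

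The groups are defined by likeness in the HMG box, and the stretch of 75 bases that encodes its end is shown because, of all stretches of that length in Sox2, its encoded residues were the most alike over the 9 genes. In Sox2 it holds codons 91 to 115 of 319. The bases were read 5′ to 3′ from the mm9 genome, and capitals mark bases that differ from Sox2.
Sox1 (chr8:12396655-12396729, plus strand): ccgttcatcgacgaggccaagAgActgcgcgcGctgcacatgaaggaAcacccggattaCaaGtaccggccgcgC
Sox2 (chr3:34549608-34549682, plus strand): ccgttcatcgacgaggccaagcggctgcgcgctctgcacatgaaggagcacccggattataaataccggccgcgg
Sox3 (chrX:58145958-58146032, minus strand): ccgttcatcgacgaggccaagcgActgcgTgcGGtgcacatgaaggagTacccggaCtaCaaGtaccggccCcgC
Sox21 (chr14:118634618-118634692, minus strand): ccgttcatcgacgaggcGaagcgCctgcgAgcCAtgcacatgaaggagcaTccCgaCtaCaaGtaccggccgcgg
Sox4 (chr13:29044498-29044572, minus strand): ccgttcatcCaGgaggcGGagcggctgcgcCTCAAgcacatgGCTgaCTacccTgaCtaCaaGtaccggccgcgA
Sox11 (chr12:28026911-28026985, minus strand): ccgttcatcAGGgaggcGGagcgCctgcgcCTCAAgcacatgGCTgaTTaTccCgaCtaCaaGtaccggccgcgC
Sox8 (chr17:25705906-25705980, minus strand): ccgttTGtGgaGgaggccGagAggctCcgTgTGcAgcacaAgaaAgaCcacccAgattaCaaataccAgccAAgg
Sox9 (chr11:112645148-112645222, plus strand): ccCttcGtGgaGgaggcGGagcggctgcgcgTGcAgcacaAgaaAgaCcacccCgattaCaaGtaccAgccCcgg
Sox10 (chr15:78989734-78989808, minus strand): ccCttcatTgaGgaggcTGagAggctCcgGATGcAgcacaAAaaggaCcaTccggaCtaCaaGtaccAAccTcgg

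Within this stretch Sox1 differed from Sox2 at 7 bases, none of which changed the encoded residue. Sox3 and Sox21 differed from Sox2 at 10 bases each, Sox4 and Sox8 at 19, Sox9 at 17, and Sox11 and Sox10 at 22. Sox4 and Sox11, the group C pair, shared 68 of 75 bases, and each shared at most 61 with any gene of another group. Sox8 and Sox9 shared 65 bases and encoded the same residues over these 25 codons. Apart from Sox1, each stretch lay inside a coding exon of that gene in GENCODE vM1. The stretch of Sox1 lay in its locus but in no annotated coding exon.

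**Figure D1:**
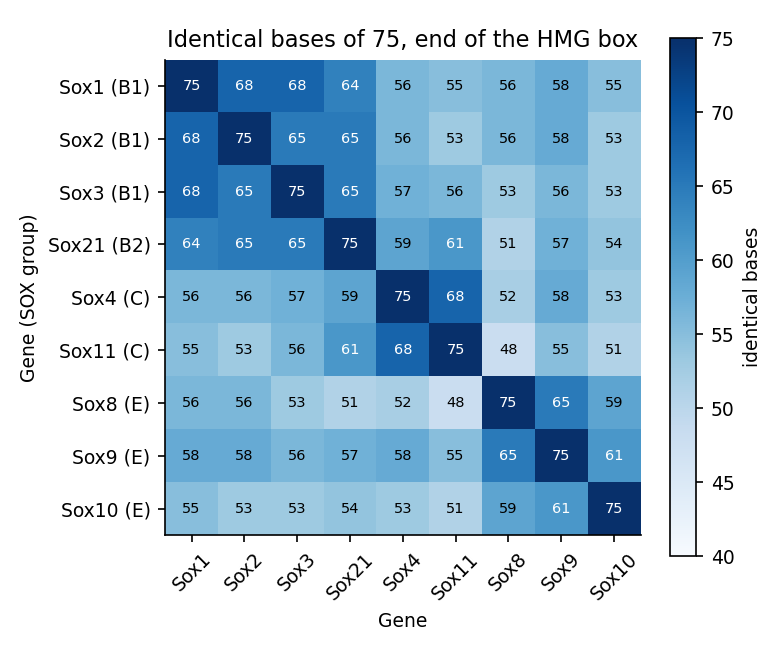
Identical bases of 75 in the stretch at the end of the HMG box, for each pair of the 9 genes (rows and columns, with the SOX group of each row). Darker cells hold more identical bases; the pair Sox4 and Sox11 shared 68, and Sox8 and Sox11 shared 48.

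Depth and replicates set what could be seen. Files held FPKM values, fragment numbers scaled by transcript length and library depth, with their confidence bounds and no counts. The bounds implied 20587283 and 22271895 fragments in the NSC libraries and 15223341 to 21952753 in the STO libraries. Log2(FPKM + 1) values correlated with Pearson's r of 0.994 to 0.996 across 12292 genes between replicates, as a description over genes. The labels do not say whether replicates were separate cultures, so p-values measure only the spread between these libraries, which may be technical. All 8 neural stem cell markers had a mean of at least 1 FPKM in NSCs, where their sum was 3777 to 4021, against 24.6 to 26.6 in STO cells. Fabp7, with a mean of 2912 FPKM, made up most of the sum in NSCs. Slc1a3, with a mean of 25.6 FPKM, made up nearly all of the sum in STO cells. Of 8 fibroblast markers, 7 had a mean of at least 1 FPKM in STO cells, where their sum was 1241 to 1306, and none did in NSCs.

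All 9 SOX genes were lower in STO cells than in NSCs. The test was limma on log2(FPKM + 1) with p-values adjusted by the Benjamini-Hochberg method and called under 0.05, and it called 43.7% of the 12292 genes tested lower in STO cells and 41.9% higher. Being lower is therefore common in this comparison, and the sizes and levels say more about the SOX genes than the calls do. Only Sox4 and Sox9 reached a mean of 1 FPKM in both cell types. The other 7 passed the filter through NSCs alone, which fixes their direction, as did 1573 of the 12292 tested genes, so counts and medians over the 9 genes are descriptions. In every SOX gene each STO library lay below each NSC library, as it did in 46.0% of the tested genes. A further requirement of a log2 difference of at least 1 was met by 8 of the 9, all but Sox4, against 21.3% of tested genes. The median difference was -4.71 on this scale for the 9 genes and -0.02 for all tested genes. Of the 9 genes, 5 were listed at 0 in all 3 STO libraries (Sox1, Sox2, Sox3, Sox21 and Sox11), as were 4.60% of the 11400 genes with a mean of at least 1 FPKM in NSCs. In these bulk libraries, fewer cells with a transcript and less of it per cell cannot be told apart.

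**Figure D2:**
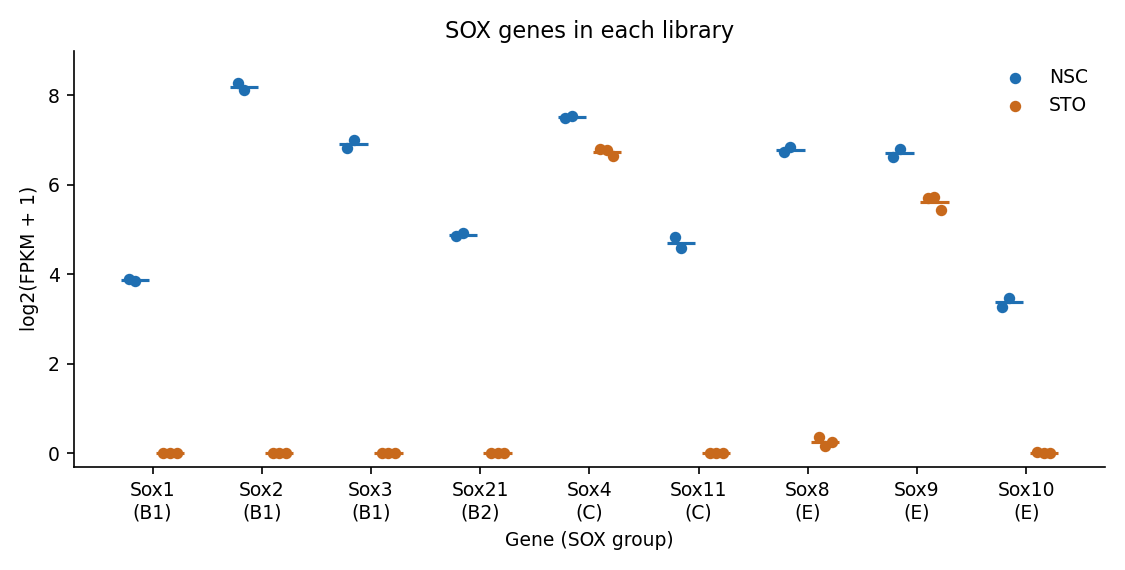
Log2(FPKM + 1) of each of the 9 genes, with its SOX group below the symbol. Points are libraries (NSC blue, n = 2; STO orange, n = 3) and bars are group means; every orange point lies below the blue points of its gene, and only Sox4 and Sox9 lie well above 0 in STO cells.

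Sox2, which with its B1 relatives maintains neural progenitors, was the most abundant SOX gene of NSCs. It had 308 FPKM in NSC replicate 1 and 276 in replicate 2, a mean of 292 ± 22.9 (SD, n = 2), and was listed at 0 in all 3 STO libraries. This level ranked 211 of 25414 genes in NSCs. The limma difference, STO minus NSC, was -8.19 with an SE of 0.0639 and an adjusted p of 4.66e-09. The STO values, all at 0, added no spread to this SE and p-value, and the filter fixed the direction. The gene spans chr3:34548917-34551382 in mm9. The noncoding transcript Sox2ot, within whose locus Sox2 lies, had 3.00 and 2.99 FPKM in NSCs and 0, 0 and 0.0196 in STO cells. The strand setting of the quantification is not given in the sources used here. Whether fragments were split between overlapping transcripts was not tested.

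Sox3 (chrX:58144541-58146605), also of group B1, came next within its group. It had 112 and 128 FPKM in the NSC libraries, a mean of 120 ± 11.3 (SD, n = 2), and was listed at 0 in each STO library. Its limma difference was -6.91 (SE 0.0698, adjusted p = 5.75e-09). Sox1 (chr8:12395519-12399555), the third B1 gene and a marker of early neural tissue, was far less abundant, with 13.9 and 13.4 FPKM in NSCs and 0 in each STO library. Its limma difference was -3.87 (SE 0.0464, adjusted p = 7.89e-09). The noncoding Sox1ot over this locus had 0.163 and 0.0974 FPKM in NSCs and was listed at 0 in STO cells. The B1 genes summed to 434 and 417 FPKM in NSCs, a mean of 425 ± 12.01 (SD, n = 2).

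Sox21 (chr14:118632456-118636252), the B2 gene that opposes B1 factors, had 27.9 and 29.4 FPKM in NSCs and was listed at 0 in all STO libraries. Its limma difference was -4.89 (SE 0.0498, adjusted p = 5.75e-09). Gm4675, which overlaps Sox21, was listed at 0 in all 5 libraries. NSC libraries held transcripts of this antagonist together with those of the B1 genes, at a lower level than Sox2 or Sox3 and a higher one than Sox1.

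Group C divided between the cell types. Sox4 (chr13:29042599-29045551), known from progenitors, neurons and mesenchyme, had 180 and 185 FPKM in NSCs and 111, 109 and 99.0 in STO cells. The groups did not overlap, and the mean was 183 ± 3.79 (SD, n = 2) in NSCs and 106 ± 6.54 (SD, n = 3) in STO cells, a ratio of 1.72. The limma difference was -0.78 with a 95% interval of -0.94 to -0.61 and an adjusted p of 6.15e-05. Sox4 ranked 340 among genes in NSCs and 595 in STO cells, and was the most abundant of the 9 SOX genes in STO cells. Sox11 (chr12:28019133-28027583), the member most like it in the stretch of 75 bases above (Sox12 was not compared), had 27.4 and 23.1 FPKM in NSCs and was listed at 0 in all 3 STO libraries. Its limma difference was -4.71 (SE 0.0774, adjusted p = 2.21e-08). Sox4 exceeded Sox11 in every library of both cell types.

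Group E also divided. Sox9 (chr11:112643524-112649071), a factor of glial and cartilage development, had 97.7 and 111 FPKM in NSCs and 51.0, 51.8 and 42.5 in STO cells. The groups did not overlap, with means of 105 ± 9.73 (SD, n = 2) and 48.4 ± 5.18 (SD, n = 3) and a ratio of 2.16. The limma difference was -1.10 with a 95% interval of -1.36 to -0.84 and an adjusted p of 9.85e-05. Its rank was 689 in NSCs and 1622 in STO cells.

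Sox8 (chr17:25702838-25707631), which acts beside SOX9 and SOX10 in glia, stood near Sox9 in NSCs but not in STO cells. It had 105 and 114 FPKM in NSCs and 0.281, 0.129 and 0.184 in STO cells, a ratio of means of 554. The STO values rested on about 18.9, 9.6 and 18.9 implied fragments, so they were low but above 0. The limma difference was -6.53 (SE 0.0746, adjusted p = 7.01e-09). Sox10 (chr15:78985343-78994920), the factor of oligodendrocytes and neural crest, was the least abundant member in NSCs at 8.66 and 10.2 FPKM. In STO cells it had 0.0163 FPKM in replicate 1, about 1 implied fragment, and was listed at 0 in the other two. Its limma difference was -3.37 (SE 0.0707, adjusted p = 6.19e-08).

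For the 5 genes listed at 0 in every STO library, 3 implied fragments would have stood for 0.0107 to 0.0852 FPKM, depending on the gene and library. Each had 1368 or more implied fragments in each NSC library. Their log2 differences depend on the pseudocount of 1 and are no bound on the change, and no fold change is given for them. Their STO values add no spread, so their SEs and p-values rest on the spread of the NSC libraries and of other genes. The filter also fixed their direction. The status column of the files was OK for every SOX gene in every library.

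**Figure D3:**
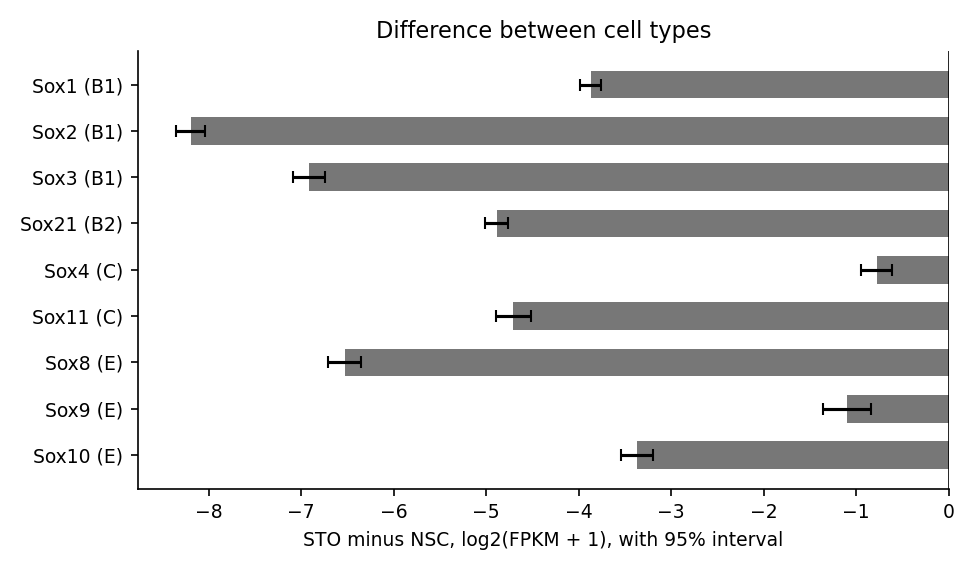
Limma difference, STO minus NSC, on the log2(FPKM + 1) scale for each of the 9 genes (group in brackets), with its 95% interval as an error bar. All intervals lie below 0, and for genes listed at 0 in every STO library they carry no spread from STO cells. Sox4 (-0.78) and Sox9 (-1.10) are the shortest bars and Sox2 (-8.19) is the longest.

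The order of levels per transcript length in NSCs was Sox2, Sox4, Sox3, Sox8, Sox9, Sox21, Sox11, Sox1 and Sox10. The ranges of the 2 libraries overlapped for the neighbours Sox3 and Sox8 and for Sox8 and Sox9, although the order held within each library. The other neighbours did not overlap. In STO cells the order was Sox4, Sox9, Sox8 and Sox10, then the 5 genes listed at 0. There Sox4 exceeded Sox9 in 3 of 3 libraries without overlap, and Sox9 exceeded Sox8 by a ratio of means of 244.

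The 9 genes summed to 881 and 891 FPKM in NSCs and to 163, 161 and 142 in STO cells. Shares and sums of groups cover these 9 genes only, so group C here is Sox4 and Sox11 without Sox12. In NSCs group B1 made up 48.0% ± 1.72 of the sum, group B2 3.23% ± 0.0918, group C 23.5% ± 0.0937 and group E 25.3% ± 1.72 (SD, n = 2). Sox2 alone made up 33.0% ± 2.84. In STO cells group C made up 68.7% ± 1.13 and group E 31.3% ± 1.13 (SD, n = 3), which were almost entirely Sox4 and Sox9. The sums of group C so counted were 208 ± 0.743 FPKM in NSCs and 106 ± 6.54 in STO cells, and those of group E 224 ± 16.9 and 48.6 ± 5.19. Sox12, left out of them, had a mean of 34.6 FPKM in NSCs and 17.1 in STO cells.

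**Figure D4:**
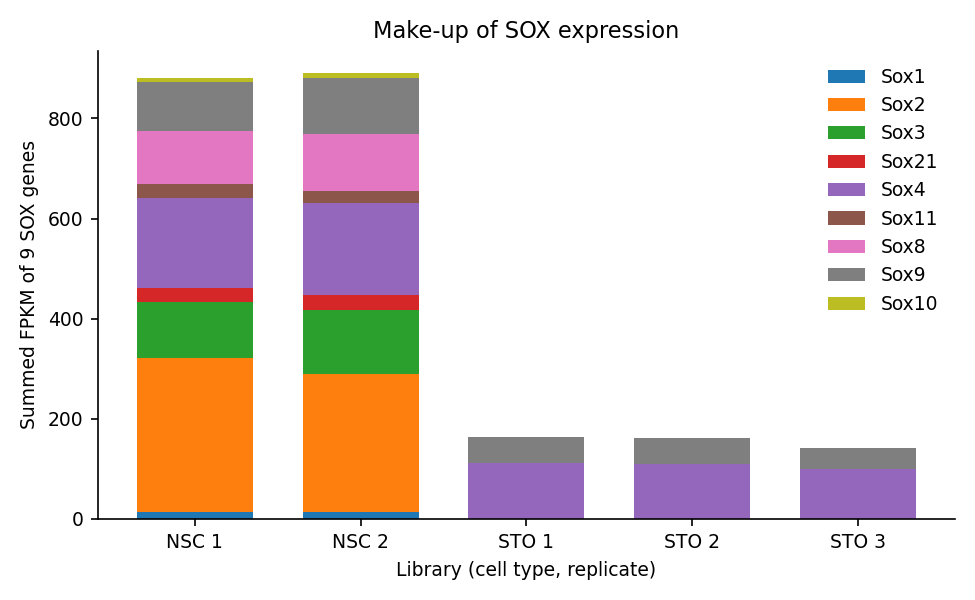
Summed FPKM of the 9 genes in each library (NSC replicates 1 and 2, STO replicates 1 to 3), stacked by gene. NSC bars reach 881 and 891 FPKM with Sox2 and Sox4 the thickest segments, and STO bars reach 142 to 163 FPKM, nearly all Sox4 and Sox9.

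Promoters were read for 6 of the 9 genes, those in the RefSeq promoter table, built on GRCm38.p6 (Sox1, Sox2, Sox4, Sox8, Sox11 and Sox21). Sox3, Sox9 and Sox10 had no entry. Each sequence occurred once in its mm9 chromosome, and mm9 positions are given. The start in the table was the first base of the deposited transcript except in Sox4, where it lay 17 bases further upstream. The 250 bases before the start are shown for Sox2, the most abundant gene of NSCs, and for the group C pair that parted in STO cells. Capitals mark the SOX core motif ACAAAG and the CCAAT box on either strand.
Sox2 (chr3:34548667-34548916, plus strand): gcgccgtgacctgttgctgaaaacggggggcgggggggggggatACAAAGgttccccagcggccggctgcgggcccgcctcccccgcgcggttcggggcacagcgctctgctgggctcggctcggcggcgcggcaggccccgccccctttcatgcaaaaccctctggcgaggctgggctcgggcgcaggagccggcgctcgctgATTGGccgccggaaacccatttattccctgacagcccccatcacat
Sox4 (chr13:29045569-29045818, minus strand): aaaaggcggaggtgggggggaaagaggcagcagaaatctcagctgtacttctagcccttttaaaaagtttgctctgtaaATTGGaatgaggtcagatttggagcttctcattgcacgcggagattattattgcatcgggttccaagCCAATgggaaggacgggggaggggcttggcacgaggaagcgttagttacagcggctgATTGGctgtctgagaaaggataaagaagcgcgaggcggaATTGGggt
Sox11 (chr12:28027584-28027833, minus strand): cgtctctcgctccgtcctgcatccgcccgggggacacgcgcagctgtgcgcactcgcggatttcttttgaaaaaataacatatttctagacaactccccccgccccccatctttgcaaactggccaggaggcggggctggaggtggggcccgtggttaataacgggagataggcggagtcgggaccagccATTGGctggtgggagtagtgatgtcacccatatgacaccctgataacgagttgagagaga

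The Sox2 window of 300 bases, which runs to 50 bases after the start, held ACAAAG at position -206 from the start, and no other of the 6 promoters held it. It occurred in 18.71% of the 32851 promoters of the table. CCAAT was found in 4 of the 6 promoters (Sox1, Sox2, Sox4 and Sox11), against 37.41% of all promoters, and Sox4 held it 4 times. From the start used here, CCAAT stood at -60 in Sox11, and its copies nearest to the start stood at -47 and -8 in Sox4. The Sox4 start lay 17 bases upstream of its deposited transcript, so these positions are counted from unlike points. TATAAA was in none of the 6 and in 13.62% of all promoters. The octamer ATGCAAAT, known as a site of POU factors, was found in the Sox1 window after the start, and in 1.74% of all promoters. CpG pairs numbered 27 in Sox2, 37 in Sox1 and 12 in Sox4, and 15.5%, 5.6% and 39.6% of all promoters held as many. These are matches of letters and not tested sites.

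The remaining SOX genes were followed as a list of 11, of which 4 passed the filter on low values and 4 were lower in STO cells, where 43.7% of all tested genes were lower. Sox6 and Sox13 passed through NSCs alone. Sox12, the third group C gene, had 32.3 and 36.9 FPKM in NSCs and 16.9, 18.0 and 16.4 in STO cells. Its difference of -0.97 (adjusted p = 3.19e-05) stood closer to that of Sox4 than to that of Sox11. Sox6, a group D factor of cartilage and oligodendrocyte development, had 29.5 and 30.4 FPKM in NSCs and at most 0.0422 in STO cells, a difference of -4.90. Sox5 (-1.12) and Sox13 (-1.66), also of group D, were lower too. The other 7 (Sry, Sox7, Sox14, Sox15, Sox17, Sox18 and Sox30) were below 1 FPKM on average in both cell types and were not tested.

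SOX factors act on many genes with a partner that binds beside them, and in neural progenitors these are POU factors of class III. Of 7 partner genes, 6 were tested and 6 were lower in STO cells, against 43.7% of all tested genes. Of these 6, 5 passed the filter through NSCs alone and could only be lower, the exception being Pou3f1. Pou3f3 had 116 and 92.1 FPKM in NSCs and 0.0145, 0 and 0 in STO cells. Pou3f1 differed by -2.93 and Pou3f4 by -3.96. Chd7, a chromatin remodeller known to bind SOX2, had 15.9 and 16.6 FPKM in NSCs and 0.274 to 0.310 in STO cells, a difference of -3.74. Pou5f1, the partner in pluripotent cells, was listed at 0 in all 5 libraries.

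Of 7 genes known as targets of group B1 factors in neural progenitors, 6 were lower and 1 was higher in STO cells, against 43.7% and 41.9% of all tested genes, with a median difference of -1.27 against -0.02. Of the 7, 4 passed the filter through NSCs alone (Nes, Hes5, Shh and Six3). Nes, the progenitor filament nestin, had 176 and 169 FPKM in NSCs and 0.0724, 0.0442 and 0.0380 in STO cells, a difference of -7.37. Hes5, a Notch effector, differed by -4.55, while Notch1 (-1.12) and Egfr (-1.55) kept 12.2 and 17.7 FPKM on average in STO cells, where Sox1, Sox2 and Sox3 were listed at 0. The gene that was higher, chosen for mention after its values were seen, was Gli2, a mediator of Hedgehog signalling, with 1.73 and 1.58 FPKM in NSCs and 3.76 to 4.43 in STO cells (0.95, adjusted p = 2.81e-05). Nes and Hes5 are also among the neural stem cell markers.

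The 4 genes known as group C targets did not move together. Map2, a microtubule protein of dendrites, had 100 and 102 FPKM in NSCs and 4.19 to 4.48 in STO cells (-4.27). Dcx, of migrating neurons, differed by -2.51, but it passed the filter through NSCs alone, which fixed its direction. The other 3 targets had a mean of at least 1 FPKM in both cell types. Tubb3, neuronal beta-tubulin, had 9.25 and 8.14 FPKM in NSCs and 8.57, 7.84 and 8.49 in STO cells, overlapping ranges with a difference of -0.06 (adjusted p = 0.477). Tead2, a factor of the Hippo pathway, was higher in STO cells, with 9.26 and 11.1 against 65.0 to 67.7 FPKM (2.59, adjusted p = 3.37e-07). Of 5 neuron markers, 3 had a mean of at least 1 FPKM in NSCs (Dcx 4.71, Snap25 3.13 and Syt1 1.26), and Dcx is also among the targets above. The 5 markers summed to 9.42 to 9.96 FPKM in NSCs and to at most 0.0463 in STO cells, where Rbfox3, Snap25 and Stmn2 were listed at 0. Whether neurons were present among the NSCs, and their part in the levels of Sox4, Sox11 and Map2, was not tested.

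Of 12 genes known as SOX9 targets in cartilage, 4 passed the filter and were lower in STO cells, a call made for 43.7% of all tested genes. Col11a1 was the only 1 of them with a mean of at least 1 FPKM in both cell types, and the direction of the other 3 was fixed by the filter. Col11a1, a fibrillar collagen, had 15.6 and 16.9 FPKM in NSCs and 4.05 to 4.19 in STO cells. Col9a3 (-2.30), Col9a2 (-1.05) and Matn4 (-1.001) were lower as well. Col2a1, the main cartilage collagen, was below the filter with 0.0323 and 0.0294 FPKM in NSCs and 0.482 to 0.648 in STO cells. The 5 chondrocyte markers summed to 0.868 to 0.882 FPKM in NSCs and 0.482 to 0.654 in STO cells, so Sox9 stood at 42.5 to 51.8 FPKM in STO cells with cartilage markers near 0.

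Of 10 genes known as SOX10 targets, 5 passed the filter (Ednrb, Mbp, Mag, Myrf and Mitf), all through NSCs alone, so that they could only be lower in STO cells, and their count is no result beside the 43.7% of all tested genes. Ednrb, the endothelin receptor, had 98.9 and 98.8 FPKM in NSCs and was listed at 0 in STO cells. Mbp, of myelin, had 83.4 and 88.3 FPKM in NSCs and at most 0.0722 in STO cells, a difference of -6.35. Mag (-2.74), also of myelin, and Myrf (-2.51), a regulator of myelin genes, were lower. Erbb3 and Ret, receptor genes of the neural crest lineage, were below the filter in both cell types. Mbp, Mag and Myrf are also oligodendrocyte markers, and 4 of these 5 markers had a mean of at least 1 FPKM in NSCs, where the list summed to 120 to 125 against 4.22 to 4.54 in STO cells, with Mag listed at 0 there. Astrocyte markers summed to 70.5 to 71.6 FPKM in NSCs and at most 0.432 in STO cells. Whether glial cells were present among the NSCs, and their part in the levels of Sox8, Sox9 and Sox10, was not tested. Of 4 neural crest markers, only Tfap2a reached 1 FPKM in STO cells (45.2 to 52.9), with Foxd3 listed at 0 and Sox10 at or near 0.

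**Figure D5:**
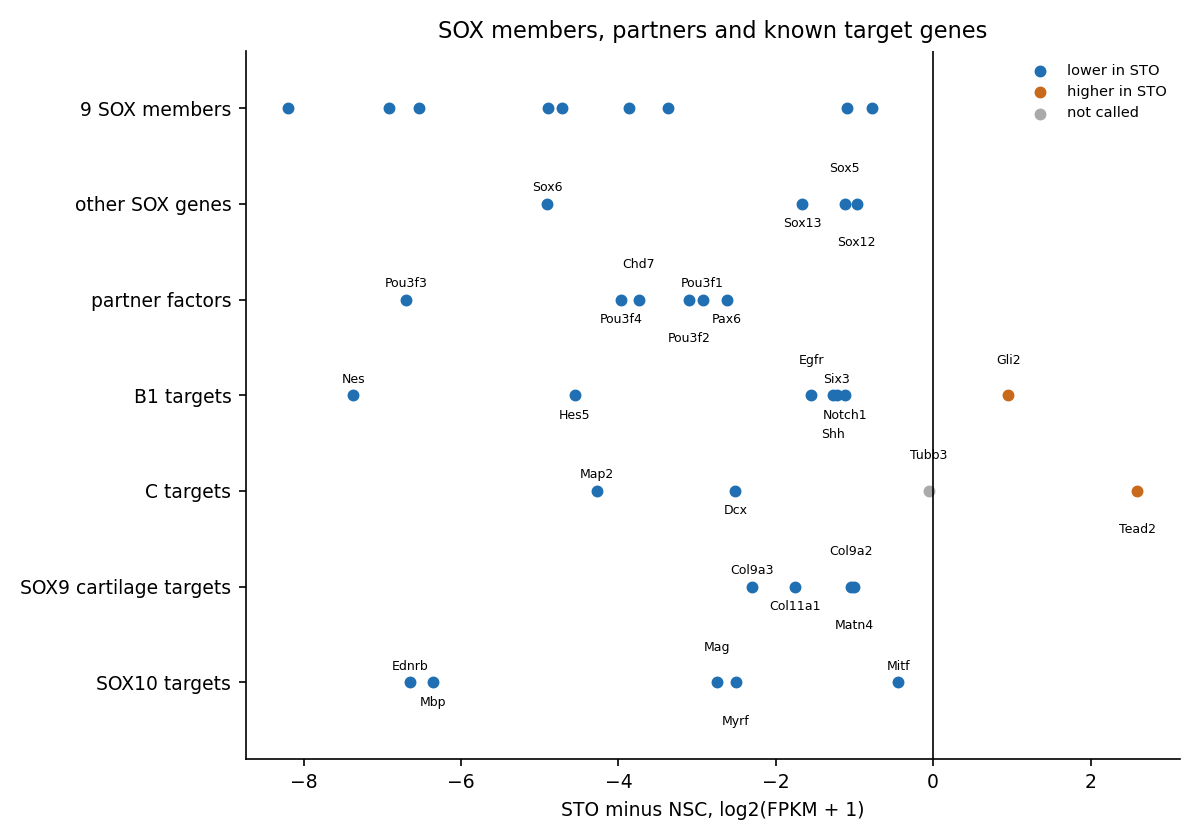
Difference, STO minus NSC, on the log2(FPKM + 1) scale for the 9 SOX genes and for each tested gene of the 6 lists (rows). Points are genes, coloured by the limma call (blue lower, orange higher, grey not called); all points of the SOX, partner, SOX9 and SOX10 rows lie left of 0, and Gli2 and Tead2 lie right of it.

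The genes whose levels over the 5 libraries were closest to those of Sox2, Sox9 and Sox4 were found by Euclidean distance of log2(FPKM + 1) among all tested genes. For Sox2 they were Igfbp3 (distance 0.110), Ncan (0.395) and Scrg1 (0.422). Igfbp3, an IGF-binding protein, had 285 and 276 FPKM in NSCs and was listed at 0 in STO cells. For Sox9 they were Wbp2 (0.275), Atxn7l3b (0.282) and Traf4 (0.321). For Sox4 they were Tnc (0.193), Glud1 (0.206) and Sap18b (0.288). Tnc, the matrix protein tenascin C, had 180 and 184 FPKM in NSCs and 99.7, 104 and 93.2 in STO cells. The measure ranks likeness of level as well as of difference and rests on 5 libraries of 2 cell types.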

How the data were processed

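RNA-seq of 2 NSC and 3 STO libraries was analysed. By the study's methods, paired-end reads of stranded mRNA libraries were trimmed and then mapped with Hisat2 (version 4.8.2 in the submitters' processing notes) to the mm9 genome. The authors deposited FPKM values from Cufflinks 2.2.1, with confidence bounds in FPKM, for 40201 RefSeq transcripts per library. Depth was thus divided out before deposit. Symbols came from a RefSeq table of GRCm38.p6, used for names only, which matched 39951 transcripts, and FPKM was summed per symbol. Coordinates are those of mm9, with starts counted from 1. Implied fragments were taken from each value and its upper bound, read as 2 standard deviations of a Poisson count, and cover counting error only.

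Genes with a mean of at least 1 FPKM in either cell type were tested with limma 3.58.1 in R 4.3.3 (eBayes with a trend) on log2(FPKM + 1), with Benjamini-Hochberg adjustment. These differences understate the change of low genes. The fit was also run on simulated data as a check of the code, which does not bear on the calls for the SOX genes. An exact permutation test of 2 against 3 libraries cannot go below p = 0.2 two-sided, so none was used. Sequences were read with Python 3.11.15 and Biopython 1.88. From each list, the 4 tested genes with the highest mean FPKM in either cell type were named, with the exceptions stated. Some genes of the lists are not reported here, and list counts and medians leave them out. The members and lists were chosen with earlier results of these data known.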

Additional observations from a re-analysis of the deposited data

How the results depend on the processing

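The difference of each of the 9 SOX genes stayed below 0 in each of the 12 refits made. The refits changed the pseudocount, filter, scaling, trend, replicate block or transcripts or left out a library. For the 7 genes that passed the filter through NSCs alone the direction was fixed beforehand. The refits therefore bear on direction only for Sox4 and Sox9. For Sox4 the difference lay between -0.81 and -0.63 and for Sox9 between -1.19 and -0.99, leaving aside the pseudocount of 0.1. In the limma refits that kept both NSC libraries, adjusted p-values were at most 0.000323 for Sox4 and 0.000411 for Sox9. Leaving out each library in turn gave -0.81 to -0.73 for Sox4 and -1.19 to -1.004 for Sox9. The genes at or near 0 in STO cells moved most with the pseudocount of 0.1, for example Sox2 from -8.19 to -11.51 and Sox1 from -3.87 to -7.10, as the pseudocount sets these values by construction. Over all genes, 5153 rose and 5375 fell in STO cells relative to NSCs. A required log2 difference of at least 1 left 2103 and 2617, by its construction, and left 8 SOX genes, without Sox4. With upper quartile scaling the sum of Sox4 and Sox11 in NSCs was 209 FPKM, against 208 ± 0.743 (SD, n = 2). Libraries of both cell types are numbered 1 and 2, but nothing says that the numbers pair them, and deviations of same-numbered libraries correlated at 0.008 and 0.061. With the replicate block, 4994 genes were higher and 5252 lower, the 9 SOX genes stayed lower, and Sox4 differed by -0.73 and Sox9 by -1.01. STO replicate 3 has no NSC library of its number and so adds nothing to these differences. They equal those of the fit without that library, so the block is no separate check of their size. With 2 NSC libraries the spread is poorly known. For the SOX genes listed at 0 in every STO library, levels of up to 0.0107 to 0.0852 FPKM, those of 3 implied fragments, cannot be told from 0 at this depth.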
